A study of Mus musculus with 28 samples.

Results

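The 6 genes described here encode 2 families of transcription factors, the nuclear factor I (NFI) proteins from Nfia, Nfib, Nfic and Nfix and the COUP-TF orphan nuclear receptors from Nr2f1 and Nr2f2. They were taken by name from a table of 28244 genes counted in 28 samples of 11 groups, and all 6 were found and tested. NFI proteins bind DNA as dimers, and in the developing central nervous system they are known for the switch of neural progenitors from making neurons to making glia and for the quiescence of adult stem cells. COUP-TF proteins bind direct repeats of a nuclear receptor half-site, mostly repress, and are known for timing the onset of gliogenesis, for patterning the cortex and, for Nr2f2, for vein, mesenchyme and organ development.

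The study asked whether neural stem cells exist outside the central nervous system, and grew peripheral neural stem cells (pNSCs) from tail, lung and dorsal root ganglion (DRG) in medium with 10 ng/mL EGF and 10 ng/mL bFGF. Bulk RNA of pNSC lines was set beside brain neural stem cells (NSCs), tissue cells and neural crest stem cells (NCSCs). The Nes-GFP experiment, in mice whose Nestin regulatory elements drive GFP, held adult lung pNSCs, postnatal tail pNSCs, brain NSCs, lung cells and tail cells, with 2 samples in each group. The labels of those 10 samples name the tissue and cell type but no transgene, and they were placed in this experiment because its descriptions match. The Wnt1Cre-mTmG experiment, in mice where Wnt1-Cre turns neural crest progeny from Tomato to GFP, held postnatal tail pNSCs, DRG pNSCs and brain NSCs, with 3 samples in each group, beside 3 samples of DRG NCSCs from adult wild-type mice. Its pNSCs were Tomato positive and GFP negative, so they lacked the neural crest label. The Sox2-GFP experiment held postnatal lung pNSCs from GFP-positive cells and brain NSCs, with 3 samples in each group, and its lung pNSCs were compared with the same 2 lung cell samples. Adult mice were 4 to 6 weeks old and postnatal mice 1 to 5 days old. For the brain NSCs, lung cells and tail cells sequenced here the study names no age by group. It describes brain NSCs from adult or postnatal mice, in most cases the same mice as the pNSCs. Age may therefore differ within comparisons that use these groups. Every sample carries the strain label C57BL/6, although the study describes wild-type mice of other backgrounds. The study describes the replicates as biological. pNSC clusters were picked singly and were usually clonal, and whether the replicates of a pNSC group are separate lines or separate cultures of a line is not stated. If they are cultures of a line, the SEs and p-values below do not cover the spread between lines of an origin.

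Library totals were 16700710 to 22637031 counts in 22 samples and 9808246 to 11431445 in the 6 samples of Wnt1Cre-mTmG brain NSCs and DRG pNSCs. The mean squared difference between replicates was 1.09 to 2.90 times that of counting error alone. NCSC replicate 3 was the exception, at 17.8 and 22.3 times against replicates 1 and 2. The main NCSC levels, shares and fold changes are therefore also given without replicate 3. All 5 NSC markers (Sox1, Sox2, Pax6, Olig2 and Nes) were above 3 counts in at least 1 sample of each of the 8 NSC and pNSC groups, with summed levels of 2197 to 3452 cpm. The samples labelled NCSCs carried neural crest and Schwann markers at 3305 to 3407 cpm, against 3.77 to 71.7 cpm in the NSC and pNSC groups, although their cell type label is NSC and their NSC markers summed to 1372 to 1738 cpm. Levels are given as cpm, the count of a gene relative to the TMM-scaled library size over all 28 samples, and levels of different genes are compared only per kilobase of exon. Every one of the 6 genes was above 3 counts in every sample, the lowest being 21 counts of Nr2f2 in a Sox2-GFP lung pNSC sample.

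Nr2f2 (COUP-TFII, ENSMUSG00000030551.14) lies on chromosome 7 at 70351944 to 70366735, on the minus strand of GRCm38. Its levels spread far more widely among the stem cell lines than those of the other 5 genes, so the sequence before the start at hand is shown. The annotation holds 6 transcripts of Nr2f2. Which start these cells use, and any part of this stretch in the spread, was not tested. The 250 bases before the RefSeq start, in GRCm38.p6, are chr7:70366747-70366996 on the minus strand, and capitals mark a match to the NFI half-site.
Nr2f2 upstream: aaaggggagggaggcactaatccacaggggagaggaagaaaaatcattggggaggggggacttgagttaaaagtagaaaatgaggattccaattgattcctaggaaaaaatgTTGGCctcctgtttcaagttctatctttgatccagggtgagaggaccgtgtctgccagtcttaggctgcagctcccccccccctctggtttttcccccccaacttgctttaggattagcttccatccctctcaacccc
The letters searched on both strands were TTGGC for the NFI half-site and AGGTCA for the COUP-TF half-site, each counted separately. RefSeq windows of 300 bases, 250 before and 50 after a start, were at hand for 5 of the 6 genes, and Nfib had none. The whole Nr2f2 window held 2 NFI half-sites, and 46.7% of 32851 windows of all genes held at least 1. The COUP-TF half-site was not among the letters of the Nr2f2 window, while 16.3% of all windows held it, and the 4 Nfix windows held 0 to 2 NFI and 0 to 1 COUP-TF half-sites. No window of the 6 genes held an NFI palindrome (0.0365% of all windows) or a COUP-TF direct repeat with 1 base between its half-sites (0.0396%). An exon of B130024G19Rik, a noncoding gene on the opposite strand, covers the printed stretch.

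Among the 8 NSC and pNSC groups the mean level of Nr2f2 ran from 1.10 to 44.0 cpm, a 40.1-fold range, which was wider than that of 97.1% of 10613 genes with at least 10 cpm in one of these groups. The 2 brain NSC samples of the Nes-GFP experiment read 3.70 and 4.24 cpm, and its lung pNSCs 6.21 and 6.14 cpm. Its tail pNSCs read 37.2 and 34.8 cpm. Tail pNSCs of the Wnt1Cre-mTmG experiment were again high, at 41.3, 40.8 and 39.7 cpm, and its DRG pNSCs read 30.7, 34.2 and 31.8 cpm against 5.72, 5.80 and 6.25 cpm in its brain NSCs. In the Sox2-GFP experiment the order was turned: brain NSCs read 46.0, 44.4 and 41.5 cpm and lung pNSCs 1.24, 1.12 and 0.932 cpm. No sample of a pNSC group overlapped the brain NSCs of its own experiment. How many of all genes were as separated was not counted. In these comparisons 40.3% to 65.5% of all genes had an adjusted p under 0.05 by edgeR's test. Over all 11 groups NCSCs were highest (178 ± 19.7 cpm, SD, n = 3, or 189 ± 1.92 cpm without replicate 3), followed by lung cells (139 ± 0.470, n = 2). In this order 2 of the 10 pairs of neighbours overlapped, DRG pNSCs with tail cells and Nes-GFP lung pNSCs with Wnt1Cre-mTmG brain NSCs. The other genes had 1 (Nfix) to 6 (Nfic) such pairs.

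**Figure D1:**
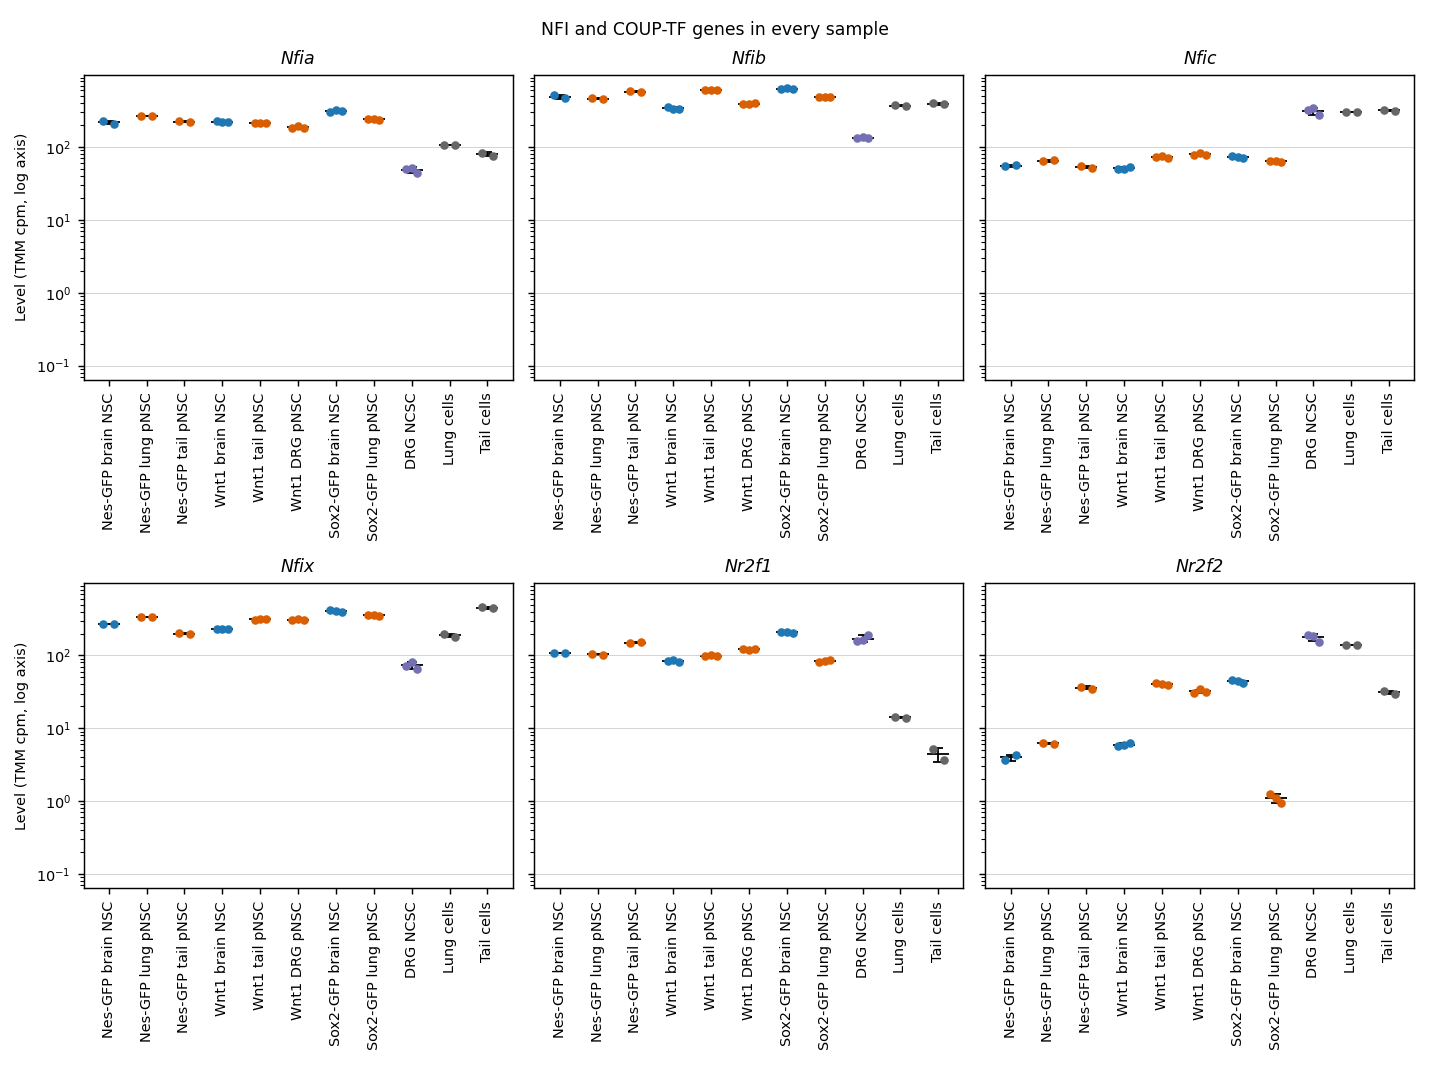
Level of each gene in every sample, in TMM cpm on a log axis, by group. Points are samples (blue, brain NSCs; orange, pNSCs; purple, DRG NCSCs; grey, tissue cells), and black bars are the group mean ± SD. Nfia, Nfib, Nfic and Nfix stay within a narrow band over the 8 NSC and pNSC groups, while Nr2f2 runs from 1.10 to 44.0 cpm there.

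The first question was whether pNSCs differ from brain NSCs of the same experiment. A gene was called where the adjusted p of edgeR's quasi-likelihood test was under 0.05 and the log2 fold change was at least 1 in either direction. Nr2f2 was the only one of the 6 genes called in Nes-GFP tail pNSCs, with a log2 fold change of 3.17 ± 0.11 (SE) and an adjusted p of 8.62e-181. Of all 16948 genes tested there 10.9% were called, and the size of the Nr2f2 change exceeded that of 96.9% of them. In Wnt1Cre-mTmG tail pNSCs Nr2f2 was again the only call, at 2.78 ± 0.10 (adjusted p = 2.28e-13), where 18.2% of 14448 genes were called. The same held in DRG pNSCs, at 2.44 ± 0.11 (adjusted p = 1.54e-11), where 9.53% of genes were called. None of the 6 genes was called in Nes-GFP lung pNSCs, where 8.71% of genes were called, and Nr2f2 read 0.63 ± 0.16 (adjusted p = 0.000304), 1 of 5 genes there at an adjusted p under 0.05. Tail and DRG pNSCs were compared with the same brain NSC samples, as were Nes-GFP tail and lung pNSCs.

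The 7 mesenchymal markers summed to 423 to 431 cpm in Wnt1Cre-mTmG tail pNSCs against 33.5 to 34.7 cpm in the brain NSCs, and their part in the Nr2f2 result there was not tested. In DRG pNSCs they summed to 29.1 to 32.8 cpm, below every one of those brain NSC samples. In Nes-GFP tail pNSCs they summed to 10.3 to 11.3 cpm against 7.99 to 10.1 cpm in brain NSCs, with Pdgfrb at 0 in both tail samples and Dcn and Lum at 0 in both brain samples. The 4 endothelial markers summed to at most 5.77 cpm in any NSC or pNSC group.

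In the Sox2-GFP experiment Nr2f2 fell in lung pNSCs by 5.32 on the log2 scale (SE 0.10), a change larger than that of 99.6% of the 16234 genes tested, and Nr2f1 fell by 1.31 (SE 0.03). Both adjusted p-values were too small to be represented. These were 2 of the 6 genes, and 15.7% of all genes were called. The 3 brain NSC samples read 207, 210 and 205 cpm of Nr2f1 and the 3 lung pNSC samples 82.5, 82.7 and 86.3 cpm. Mesenchymal markers summed to 94.6 to 101 cpm in the brain NSCs and 21.6 to 24.7 cpm in the lung pNSCs, and astrocyte markers to 846 to 854 cpm and 61.8 to 64.3 cpm. Their part in either change was not tested.

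Whether the lung pNSC against brain NSC difference was the same with the adult Nes-GFP and the postnatal Sox2-GFP lung lines was tested as an interaction in a fit of all 28 samples. The lung against brain difference in Nr2f2 was higher in the Nes-GFP experiment by 5.96 ± 0.22 on the log2 scale (adjusted p = 6.32e-23) and that in Nr2f1 by 1.23 ± 0.08 (adjusted p = 2.01e-16). The other 4 genes were not called, and 14.1% of all 17393 genes were. Both sides of the Nr2f2 difference moved. Sox2-GFP brain NSCs held 44.0 ± 2.28 cpm (SD, n = 3) against 3.97 ± 0.378 cpm in Nes-GFP brain NSCs (n = 2), and lung pNSCs held 1.10 ± 0.157 cpm against 6.18 ± 0.0509 cpm. Age, transgene, line and experiment cannot be told apart here. The tail pNSC against brain NSC difference was called as differing between the Nes-GFP and Wnt1Cre-mTmG experiments for none of the 6 genes, and for 16.0% of all genes. For Nr2f2 the interaction read 0.40 ± 0.18 (adjusted p = 0.0694, on the other side of 0.05 in 4 of 16 alternatives), and the largest, for Nfix, was -0.89 ± 0.06 (adjusted p = 7.03e-15).

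**Figure D2:**
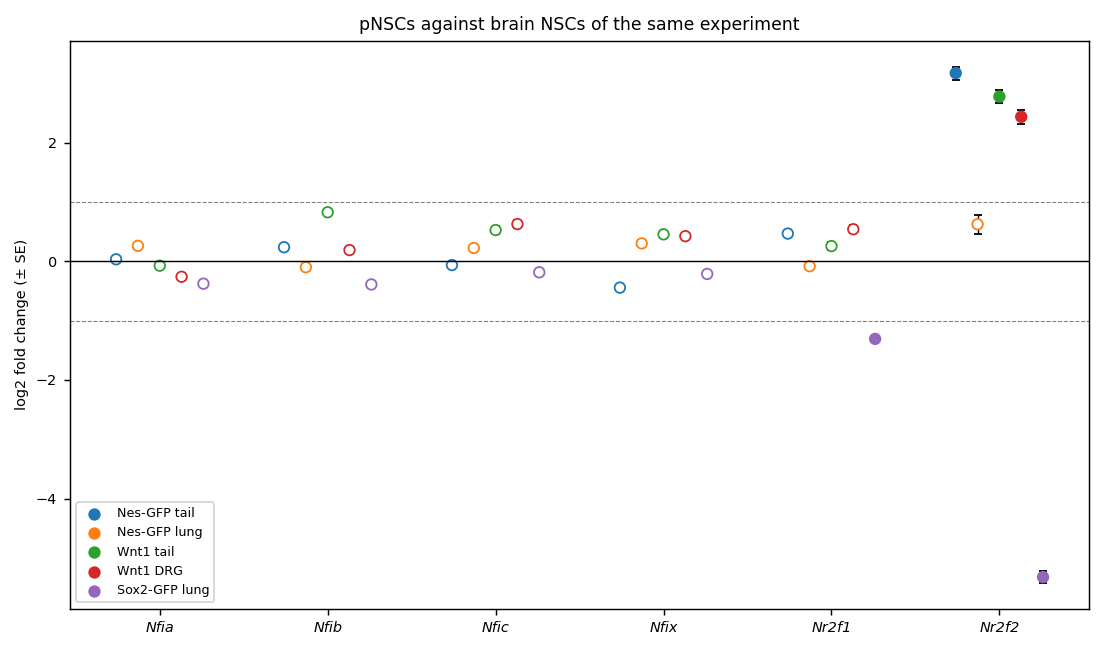
log2 fold change ± SE of each gene in pNSCs against the brain NSCs of the same experiment, for the 5 pNSC groups. Filled points passed both thresholds and open points did not, and dashed lines mark a log2 fold change of 1 in each direction. Filled points are those of Nr2f2 in 4 of the groups and of Nr2f1 in Sox2-GFP lung pNSCs.

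The 2 pNSC origins within an experiment were also compared. In the Nes-GFP experiment the tail pNSCs were postnatal and the lung pNSCs adult, so origin and age cannot be told apart there. Nr2f2 was higher in Nes-GFP tail than lung pNSCs by 2.55 ± 0.10 (adjusted p = 1.56e-138), the only one of the 6 genes called where 12.9% of all genes were. None was called between Wnt1Cre-mTmG tail and DRG pNSCs, where 18.0% of genes were, and Nr2f2 read 0.34 ± 0.08 (adjusted p = 0.000876) and Nfib 0.64 ± 0.03 (adjusted p = 1.37e-11), both toward tail.

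Nr2f1 (COUP-TFI, ENSMUSG00000069171.14), a regulator of cortical area patterning, lies on chromosome 13 at 78188973 to 78199757 on the minus strand. Its mean level ran from 83.5 to 207 cpm over the 8 NSC and pNSC groups, a 2.48-fold range, against a median of 1.75-fold over the 10613 genes. The highest group was Sox2-GFP brain NSCs and the lowest Wnt1Cre-mTmG brain NSCs (82.6, 87.2 and 80.7 cpm), whose range overlapped that of Sox2-GFP lung pNSCs. In tissue cells it was near the bottom of its range, at 14.1 ± 0.111 cpm in lung cells (SD, n = 2) and 5.11 and 3.70 cpm in tail cells. In a bulk sample, fewer cells that carry a transcript and less of it per cell cannot be told apart.

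Per kilobase of exon, Nr2f1 was above Nr2f2 in every NSC, pNSC and NCSC group and below it in both tissues. Nr2f2 made up 0.769% ± 0.126 (SD, n = 3) of the summed COUP-TF level in Sox2-GFP lung pNSCs, 2.11% ± 0.192 (n = 2) in Nes-GFP brain NSCs and 19.4% ± 0.524 (n = 3) in Wnt1Cre-mTmG tail pNSCs. It made up 38.2% ± 5.19 (n = 3) in NCSCs (41.2% ± 0.998 without replicate 3), 80.8% ± 2.68 (n = 2) in tail cells and 85.3% ± 0.0564 (n = 2) in lung cells. The summed level was highest in NCSCs (54.1 ± 1.53 cpm per kb, or 53.2 ± 0.75 without replicate 3) and in Sox2-GFP brain NSCs (45.8 ± 0.709) and lowest in tail cells (4.47 ± 0.394).

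**Figure D3:**
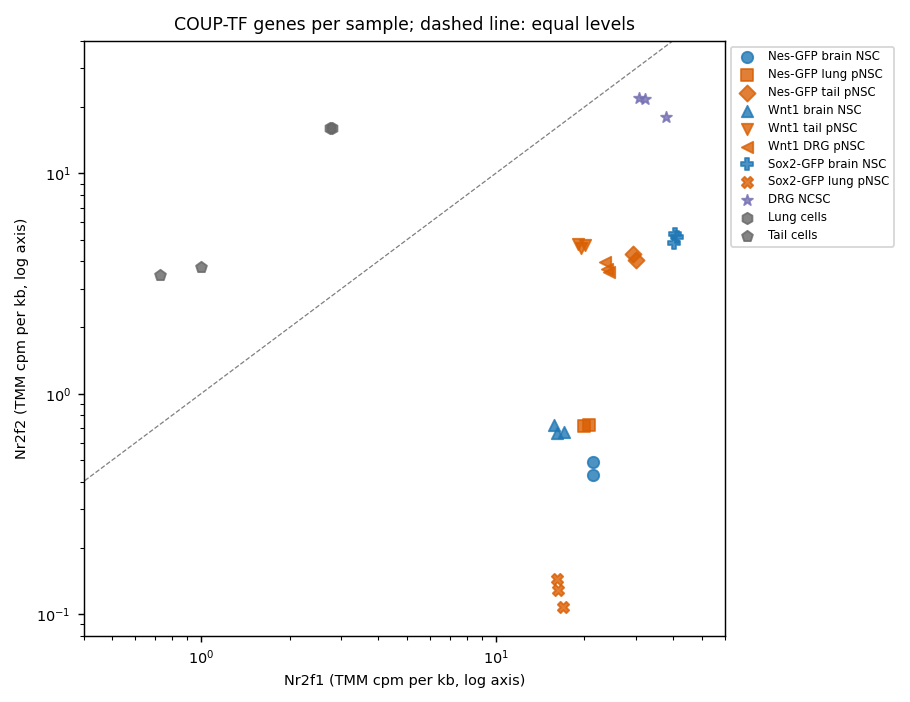
Level of Nr2f2 against that of Nr2f1 in every sample, both in TMM cpm per kilobase of exon on log axes, with 1 symbol per group and a dashed line where both are equal. Lung and tail cells lie above the line and all other samples below it, with Sox2-GFP lung pNSCs farthest below.

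Nfia (ENSMUSG00000028565.18, chromosome 4, 97772734 to 98118874, plus strand) is a glial competence factor of neural progenitors and Nfib (ENSMUSG00000008575.17, chromosome 4, 82290173 to 82705750, minus strand) is known from lung and cortical development. Nfix (ENSMUSG00000001911.16, chromosome 8, 84699876 to 84800344, minus strand) is known from adult neural and muscle stem cells, and Nfic (ENSMUSG00000055053.18, chromosome 10, 81396186 to 81455635, minus strand) from tooth root formation. None of the 4 passed the fold threshold in any of the 5 comparisons of pNSCs with brain NSCs. Over the 8 NSC and pNSC groups their means ran from 188 to 314 cpm for Nfia, 343 to 632 cpm for Nfib, 51.5 to 79.7 cpm for Nfic and 198 to 413 cpm for Nfix. These are 1.68-fold, 1.84-fold, 1.55-fold and 2.09-fold ranges, close to the median of 1.75-fold over all genes.

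Smaller differences were measured in the NFI genes. The largest against brain NSCs was that of Nfib in Wnt1Cre-mTmG tail pNSCs, 0.83 ± 0.03 (adjusted p = 4.25e-13), with 607, 606 and 609 cpm against 352, 339 and 338 cpm. Nfic read 0.53 ± 0.07 in those tail pNSCs and 0.63 ± 0.07 in DRG pNSCs, and Nfix 0.46 ± 0.05 and 0.42 ± 0.05. In Nes-GFP tail pNSCs Nfix went the other way, at -0.44 ± 0.04 (adjusted p = 1.04e-33), with 201 and 195 cpm against 269 and 269 cpm. In Sox2-GFP lung pNSCs all 4 were below brain NSCs, between -0.18 for Nfic and -0.39 for Nfib, while in Nes-GFP lung pNSCs Nfia, Nfic and Nfix read 0.26, 0.23 and 0.30 and Nfib -0.098 ± 0.032. The adjusted p of that Nfib value, 0.00716, was above 0.05 in 5 of 11 alternatives. Nfia in Nes-GFP tail pNSCs read 0.03 ± 0.04 (adjusted p = 0.445), and its sign changed without brain NSC replicate 2.

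The make-up of the NFI family was taken as the share of each gene in the summed level per kilobase. The shares of Nfic, Nfia and Nfib separated the NSC and pNSC groups from the rest, and that of Nfix did not. Nfic held 7.93% to 12.3% of the family in the 8 NSC and pNSC groups, but 33.6% ± 0.306 (SD, n = 2) in tail cells, 43.1% ± 0.767 (n = 2) in lung cells and 66.8% ± 1.16 (n = 3) in NCSCs, or 67.5% ± 0.182 without replicate 3. Nfia held 17.1% to 24.9% in the NSC and pNSC groups and 5.10% to 9.28% in the other 3. Nfix or Nfib held the largest share in each NSC and pNSC group, Nfix in 7 of them and Nfib in Nes-GFP tail pNSCs (41.1% ± 0.220, n = 2, against 28.6% ± 0.0606 for Nfix). That ranking depends on the length scaling: as shares of the NFI cpm not divided by length, Nfib was largest in all 8 groups, at 40.4% to 55.0%.

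**Figure D4:**
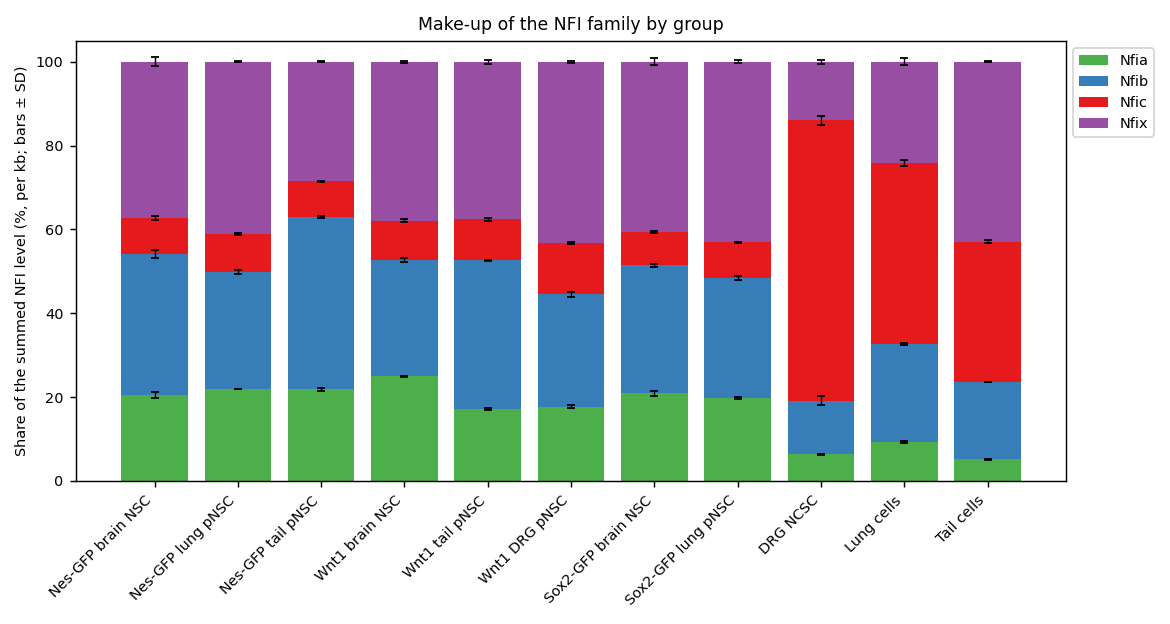
Share of each NFI gene in the summed NFI level per kilobase of exon, in percent, stacked by group, with error bars of the SD over samples. The Nfic share is 7.93% to 12.3% in the 8 NSC and pNSC groups and 33.6% to 66.8% in NCSCs, lung cells and tail cells.

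Against the tissue cells, 4 of the 6 genes were called in each of 3 comparisons. In Nes-GFP tail pNSCs Nr2f1 was higher than in tail cells by 5.00 ± 0.08 and Nfia by 1.41 ± 0.04, while Nfic fell by 2.67 (SE 0.04) and Nfix by 1.27 (SE 0.04). Of all genes 46.7% were called in that comparison, so 4 of 6 is near the background. Nr2f2 did not pass there, at 0.12 ± 0.08 (adjusted p = 0.132). Tail cells read 322 and 316 cpm of Nfic against 54.4 and 51.9 cpm in the tail pNSCs, and 32.3 and 29.9 cpm of Nr2f2.

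In Nes-GFP lung pNSCs Nr2f1 was higher than in lung cells by 2.84 ± 0.07 and Nfia by 1.27 ± 0.04, while Nr2f2 read -4.52 ± 0.08 and Nfic -2.25 ± 0.04. Sox2-GFP lung pNSCs gave the same 4 calls, with Nr2f1 at 2.55 ± 0.06, Nfia at 1.16 ± 0.03, Nr2f2 at -7.00 ± 0.08 and Nfic at -2.26 ± 0.03. The Nfia call there was lost, at 0.99, when only genes with a mean count of at least 100 were tested. All genes were called at 55.0% and 56.3% in these comparisons, which share the lung cell samples. Those samples were placed in the Nes-GFP experiment. The Sox2-GFP comparison is therefore across experiments, and experiment, transgene, any difference in age and cell type cannot be told apart in it. Nfib and Nfix were not called in either, at 0.28 and 0.36 for Nfib and 0.79 and 0.90 for Nfix. Lung cells read 139 and 138 cpm of Nr2f2 and 303 and 303 cpm of Nfic. Their 4 endothelial markers summed to 3952 to 4026 cpm and their 7 mesenchymal markers to 4504 to 4612 cpm, against at most 4.13 and 24.7 cpm in the lung pNSC groups, and the part of those cells in the Nr2f2 level was not tested.

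The tissues differed from each other in 3 of the 6 genes, where 43.4% of all genes were called. Nfix was higher in tail than in lung cells by 1.32 ± 0.04, with 460 and 444 cpm against 195 and 181 cpm. Nr2f2 was lower in tail cells by 2.09 (log2 fold change -2.09 ± 0.06) and Nr2f1 by 1.60 (-1.60 ± 0.13).

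NCSCs, the neural crest reference, differed from Wnt1Cre-mTmG brain NSCs in all 6 genes, where 36.9% of all genes were called. Nr2f2 was higher by 4.92 ± 0.09 (adjusted p = 3.52e-18), Nfic by 2.62 ± 0.07 (adjusted p = 2.29e-16) and Nr2f1 by 1.04 ± 0.06 (adjusted p = 7.63e-11). Nfia fell by 2.18 (SE 0.05), Nfix by 1.65 (SE 0.05) and Nfib by 1.33 (SE 0.03). The 3 NCSC samples read 190, 188 and 155 cpm of Nr2f2, 325, 343 and 275 cpm of Nfic and 50.8, 51.9 and 43.9 cpm of Nfia. Replicate 3 was the lowest of the 3 in each of these, and in Nr2f1 it was the highest, at 192 cpm against 156 and 163 cpm. Without it 5 genes were called, since Nr2f1 then read 0.95, while Nr2f2 read 5.00, Nfic 2.71, Nfia -2.12, Nfix -1.58 and Nfib -1.32. NCSCs also carried mesenchymal markers at 2948 to 3580 cpm and leukocyte markers at 113 to 122 cpm, against 33.5 to 34.7 and 2.14 to 2.80 cpm in the brain NSCs, and their part was not tested.

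Tail pNSCs differed from NCSCs in 5 of the 6 genes (37.9% of all genes were called) and DRG pNSCs in the same 5 (38.3%). Nfia, Nfib and Nfix were higher in tail pNSCs by 2.11, 2.16 and 2.10 and in DRG pNSCs by 1.92, 1.52 and 2.07, each with an SE of at most 0.05. Nfic read -2.09 ± 0.06 and -1.99 ± 0.06, and Nr2f2 -2.14 ± 0.06 and -2.48 ± 0.07. Nr2f1 read -0.78 ± 0.06 and -0.50 ± 0.06 and did not pass the fold threshold. DRG pNSCs and NCSCs both come from DRG, but of postnatal Wnt1Cre-mTmG and adult wild-type mice. Between them all 6 genes had an adjusted p under 0.05 by edgeR's test, as did 82.4% of all genes. Without NCSC replicate 3 the same 5 genes were called in both comparisons, which share the NCSC samples, and no log2 fold change moved by more than 0.0945 in tail or 0.0952 in DRG pNSCs.

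**Figure D5:**
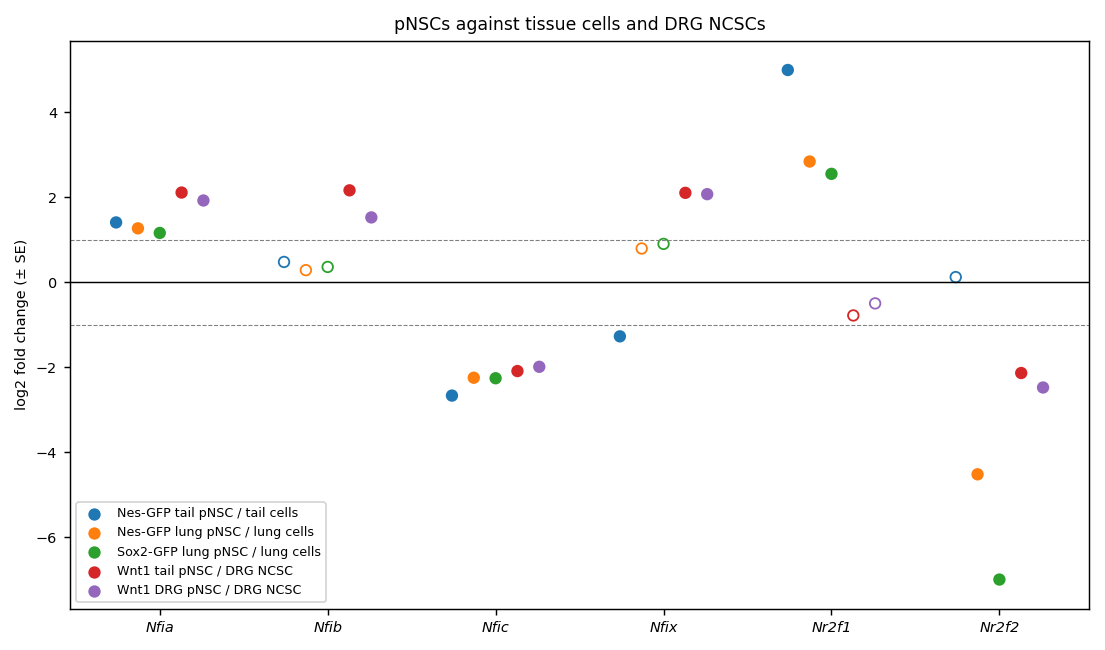
log2 fold change ± SE of each gene in pNSCs against tissue cells (3 comparisons) and against DRG NCSCs (2 comparisons). Filled points passed both thresholds, and dashed lines mark a log2 fold change of 1 in each direction. Nfic lies between -1.99 and -2.67 in all 5 comparisons, and Nr2f2 reaches -7.00 in Sox2-GFP lung pNSCs against lung cells.

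Genes around these factors were counted from lists. Of all genes tested, 4.31% were called higher and 6.59% lower in Nes-GFP tail pNSCs, 4.56% and 4.15% in Nes-GFP lung, 9.16% and 9.05% in Wnt1Cre-mTmG tail, 3.12% and 6.41% in DRG and 5.76% and 9.99% in Sox2-GFP lung pNSCs, each against its brain NSCs. Of 16 genes tied to NFI and glial competence, such as Sox9, Fabp7, Gfap and Aqp4, 1 was higher and 7 were lower in Nes-GFP tail pNSCs than in brain NSCs, with a median log2 fold change of -0.57 against 0 for all genes. In Nes-GFP lung pNSCs 1 was higher and 2 were lower of 16 (median -0.36), and in Wnt1Cre-mTmG tail pNSCs 4 were higher and 2 lower of the 15 tested (median 0.10). DRG pNSCs had 0 higher and 3 lower of 15 (median -0.18), and Sox2-GFP lung pNSCs 0 higher and 8 lower of 15 (median -1.44). The rises were Tnc in Nes-GFP tail (1.89 ± 0.03), Slc1a2 in Nes-GFP lung (1.76 ± 0.03) and 4 in Wnt1Cre-mTmG tail pNSCs. Those 4 were Apcdd1 (4.51 ± 0.07), Tnc (1.70 ± 0.05), Mmd2 (1.35 ± 0.07) and Hes1 (1.21 ± 0.06). Slc1a2 was called lower in Nes-GFP tail, Apcdd1 in Sox2-GFP lung, and Mmd2 in Nes-GFP tail, Nes-GFP lung and Sox2-GFP lung pNSCs. Aldh1l1, an astrocyte folate enzyme, was lower in Nes-GFP lung pNSCs by 2.84 (log2 fold change -2.84 ± 0.08) and in Wnt1Cre-mTmG tail pNSCs it held 10.7 ± 0.121 cpm against 966 ± 14.7 cpm in brain NSCs (SD, n = 3 each). Gfap, the astrocyte intermediate filament, fell by 5.84 (SE 0.14) in DRG pNSCs, and Aqp4, a water channel, fell by 6.15 (SE 0.05) in Sox2-GFP lung pNSCs. Gjb6, a connexin, was called in Nes-GFP tail pNSCs, where it was at 0 in both samples against 11 counts over both brain NSC samples, at least 1.57-fold lower by a floor of 3 counts per library. Gfap, Aqp4 and Aldh1l1 also form the astrocyte marker list, whose summed level was 88.2 to 89.7, 1108 to 1135 and 846 to 854 cpm in the brain NSCs of the Nes-GFP, Wnt1Cre-mTmG and Sox2-GFP experiments. In their pNSCs it was 5.43 to 23.2, 89.2 to 170 and 61.8 to 64.3 cpm. Aldh1l1 was the larger part in those brain NSCs, at 79.0, 966 and 499 cpm. In Nes-GFP lung pNSCs Aqp4 was at 7.89 ± 0.506 cpm against 5.89 ± 1.78 cpm in brain NSCs (SD, n = 2 each).

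Of 13 tested temporal regulators of stem cells, 5 were higher and 1 lower in Nes-GFP tail, 3 and 0 in Nes-GFP lung, 5 and 1 in Wnt1Cre-mTmG tail, 4 and 1 in DRG and 2 and 4 in Sox2-GFP lung pNSCs, each against its brain NSCs. These are 46.2%, 23.1%, 46.2%, 38.5% and 46.2% of the list, beside 10.9%, 8.71%, 18.2%, 9.53% and 15.7% of all genes. Hmga2, a chromatin protein of young stem cells, rose by 1.39 ± 0.08 in Nes-GFP tail, 3.21 ± 0.11 in Wnt1Cre-mTmG tail, 2.72 ± 0.12 in DRG and 2.51 ± 0.08 in Sox2-GFP lung pNSCs, and was not called in Nes-GFP lung pNSCs. Igf2bp3, an RNA-binding protein, rose by 5.24 ± 0.16 in Nes-GFP tail, 2.54 ± 0.24 in Nes-GFP lung, 6.80 ± 0.13 in Wnt1Cre-mTmG tail and 2.81 ± 0.23 in DRG pNSCs, but read -3.80 ± 0.10 in Sox2-GFP lung pNSCs. Igf2bp2, of the same family, was called in the same directions, at -3.38 ± 0.11 in Sox2-GFP lung pNSCs. The other regulators that fell were Zbtb20 in Nes-GFP tail (-1.03 ± 0.04), Pou3f2 in Sox2-GFP lung (-1.19 ± 0.04) and Dach1 in 3 comparisons. Igf2bp1, a relative of Igf2bp2 and Igf2bp3, was at 1 count over the 3 Wnt1Cre-mTmG brain NSC samples and 1990 over the 3 tail pNSC samples. The ratio was 1030, with a 95% counting interval of 185 to 40686. In Nes-GFP tail pNSCs Igf2bp1 was at 29 counts against 0 over both brain NSC samples, at least 5.19-fold higher. Dach1, at 2 counts in Nes-GFP brain NSCs and 33 in lung pNSCs, gave a ratio of 17.0 (4.35 to 146) and was also called higher in Nes-GFP tail pNSCs. At higher counts Dach1 read -1.68 ± 0.17 in Wnt1Cre-mTmG tail, -3.75 ± 0.27 in DRG and -2.32 ± 0.19 in Sox2-GFP lung pNSCs. Casz1 read 1.12 ± 0.42 in Sox2-GFP lung pNSCs from 15 and 37 counts.

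Among 7 tested receptors of the same nuclear receptor subfamily and their RXR partners, only Nr2e1 was called in the first 4 comparisons, and in Sox2-GFP lung pNSCs Nr2e1 and Rxrg (-4.73) were, all lower. That is 14.3% of the list in each of the 4 and 28.6% in Sox2-GFP lung pNSCs. Nr2e1 encodes Tailless, a COUP-TF relative that maintains forebrain stem cells. It held 40.1 ± 1.46, 38.9 ± 0.625 and 24.8 ± 0.460 cpm in the brain NSCs of the 3 experiments and 4.90 ± 0.418 cpm in Nes-GFP lung pNSCs (log2 fold change -3.05 ± 0.12). It was at 0 in both Nes-GFP tail pNSC samples, at least 234-fold lower, and at 0 in all 3 DRG pNSC samples, at least 132-fold lower. In Wnt1Cre-mTmG tail pNSCs 3 counts stood against 1297, a ratio of 836 with an interval of 285 to 4057, and in Sox2-GFP lung pNSCs the log2 fold change was -7.28 ± 0.18, from 10 counts against 1438. Of 6 partners and corepressors of COUP-TF, 2 were higher in each Nes-GFP comparison, 1 was lower in Wnt1Cre-mTmG tail, none was called in DRG and 2 were lower in Sox2-GFP lung pNSCs. These are 33.3%, 33.3%, 16.7%, 0% and 33.3% of the list, so that Wnt1Cre-mTmG tail was near the 18.2% of all genes. Bcl11a, a zinc finger partner, was at 0 in both Nes-GFP brain NSC samples against 9.25 ± 1.21 cpm in lung pNSCs, at least 60.8-fold higher, and against 31 counts over both tail pNSC samples, at least 5.29-fold higher. The last value rests on 25 and 6 counts. Bcl11a was lower in Wnt1Cre-mTmG tail (-2.42 ± 0.19) and Sox2-GFP lung pNSCs (-3.70 ± 0.15).

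Genes whose pattern over the 11 group means was most like each of the 6 were named by Pearson's r of log2(cpm + 1) among 10680 genes with a mean of at least 10 cpm. These points share libraries and normalization, and r is a description. Nearest to Nr2f1 was A830082K12Rik (r = 0.992), then Lsm14b (0.971) and Clcn6 (0.967). Nearest to Nr2f2 were Fgd4 (0.897), Fads3 (0.851) and Gid4 (0.846), and no gene reached 0.9 with it. Nfia lay nearest to Rassf2 (0.983), Arhgap21 (0.980) and Slc1a3 (0.975), an astrocyte glutamate transporter, and Nfic to Gask1b, Tmem159 and Aopep (0.985 each). Nfib lay nearest to Cecr2 (0.964), Cuedc1 (0.95) and Ralgps2 (0.944), and Nfix to Krba1 (0.936), Paxbp1 (0.935) and Ptp4a1 (0.927). Between members r was highest for Nfia and Nfib (0.82) and lowest for Nfia and Nfic (-0.91), and for Nr2f1 and Nr2f2 it was -0.14. Spearman's rho was 0.555, -0.709 and 0.364 for these pairs, so the sign for Nr2f1 and Nr2f2 depended on the measure.

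Some reads of these genes could belong to overlapping transcripts, and whether counting used strand is not given in the sources used here. A830082K12Rik, antisense to Nr2f1 and sharing 123 exon bases with it, reached 23.5% of the Nr2f1 count, and B130024G19Rik, sharing 643 bases with Nr2f2, reached 6.62% of the Nr2f2 count. B130024G19Rik was at 8.98 ± 0.255 cpm in lung cells (n = 2) and 4.58 ± 0.730 cpm in NCSCs (n = 3), the groups highest in Nr2f2 in the opposite order, and at 0 in every sample of Nes-GFP brain NSCs and both lung pNSC groups, which allows up to 3 counts per library. E130114P18Rik shares 4 bases with Nfia, reached 30.2% of its count, and read 61.5 ± 2.27 cpm in Wnt1Cre-mTmG tail pNSCs against 29.2 ± 1.55 cpm in the brain NSCs, a log2 fold change of 1.08 ± 0.06 (adjusted p = 1.11e-10), where Nfia read -0.07 ± 0.05 (adjusted p = 0.166).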

How the data were processed

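RNA-seq counts of 28244 genes in 28 samples were analysed. According to the study and the labels, the authors aligned single-end reads of poly(A) RNA to GRCm38 with HISAT2, ran Cufflinks and counted reads per gene with HTSeq, and they deposited 1 table of raw counts. The strand setting, counting mode and annotation release are not given in the sources used here. Every column was used, and no row lacked a gene.

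Per experiment, 1 model was fitted with edgeR 4.0.16 in R 4.3.3: filterByExpr (10 counts, total 15), TMM scaling, quasi-likelihood test, Benjamini-Hochberg adjustment over all genes of a comparison. The Nes-GFP fit held 10 samples (16948 genes), the Wnt1Cre-mTmG fit 12 (14448 genes) and the Sox2-GFP fit 8, the 2 lung cell samples included (16234 genes). Differences between experiments came from a fit of all 28 samples (17393 genes). SE is the log2 fold change divided by the root of F. The fits were tested on simulated counts, where 200 of 200 changed genes were recovered in each of the 4 designs (Nes-GFP, Wnt1Cre-mTmG, Sox2-GFP and all samples, with 16229, 14018, 15699 and 16252 genes tested), with at most 2 false calls. Those counts had the same small spread for every gene, and only the 200 genes changed, all beyond the fold threshold. They do not test comparisons where many genes change, or an outlying replicate.

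Levels are TMM cpm over all 28 samples, divided by GENCODE M21 exon length (27841 of 28244 symbols matched) where genes are compared. Counts of 9808246 to 22637031 per sample set the precision, and intervals and floors (3 counts) cover counting error only.

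The 6 genes, the gene lists and the markers were chosen with earlier results of these data known. Named genes were these 6, the 3 genes of highest r with each, overlapping genes, and from the lists the 2 largest rises and 2 largest falls that passed both thresholds in each comparison of pNSCs with brain NSCs. Rxrg, Igf2bp2, Zbtb20, Pou3f2, Tnc, Slc1a2, Apcdd1, Mmd2 and Hes1 were added after their values were seen. Alternatives were DESeq2 1.42.0, upper-quartile scaling, no filter, a mean of at least 100 counts, only the groups compared, all 28 samples in 1 fit, a replicate block, no limit on the fold change, each replicate left out, shares from cpm not divided by length and Spearman's rho for likeness.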

Additional observations from a re-analysis of the deposited data

Results flagged for a closer look

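Both COUP-TF genes differed between experiments in the contrast of lung pNSCs with brain NSCs, by an interaction test in edgeR. The lung pNSC against brain NSC difference was higher in the Nes-GFP than in the Sox2-GFP experiment by 5.96 on the log2 scale for Nr2f2 (SE 0.22, adjusted p = 6.32e-23) and by 1.23 for Nr2f1 (SE 0.08, adjusted p = 2.01e-16). Within each experiment, every lung pNSC sample was above every brain NSC sample for Nr2f2 in Nes-GFP and below in Sox2-GFP. Nr2f1 was lower in every lung pNSC sample in both experiments, with a log2 fold change of -0.08 ± 0.05 in Nes-GFP (adjusted p = 0.151) and -1.31 ± 0.03 in Sox2-GFP. The brain NSCs of the 2 experiments differed in the same genes, with 44.0 against 3.97 cpm of Nr2f2 and 207 against 109 cpm of Nr2f1, and the lung lines differed in age. Age, transgene, line and experiment cannot be told apart.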

How the results depend on the processing

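Of 1206 refitted log2 fold changes of the 6 genes, 1203 kept their direction and their call (both thresholds together), while the adjusted p alone crossed 0.05 in 20 refits of 9 values with small fold changes. Nfia in Nes-GFP tail pNSCs against brain NSCs turned to -0.029 without brain NSC replicate 2 (0.097 without replicate 1), Nr2f1 in NCSCs against brain NSCs read 0.95 without NCSC replicate 3, and Nfia in Sox2-GFP lung pNSCs against lung cells read 0.99 with a mean count of at least 100, all by edgeR's quasi-likelihood test. Nr2f2 kept its call in every alternative run for the 4 comparisons of pNSCs with brain NSCs that called it, at 3.08 to 3.27 in Nes-GFP tail, 2.75 to 2.82 in Wnt1Cre-mTmG tail, 2.39 to 2.48 in DRG and -5.42 to -5.21 in Sox2-GFP lung pNSCs. With no limit on the fold change, 4 of the 6 genes (49.1% of all genes) passed in Nes-GFP tail pNSCs against brain NSCs and 5 (40.3%) in Nes-GFP lung. Against brain NSCs, 5 (65.5%) passed in Wnt1Cre-mTmG tail, 6 (45.9%) in DRG and 6 (65.5%) in Sox2-GFP lung pNSCs. Between Nes-GFP tail and lung pNSCs 6 (53.3%) passed, between tail and lung cells 6 (82.1%), and between Wnt1Cre-mTmG tail and DRG pNSCs 4 (65.2%). For the interactions between experiments, 4 (48.7%) passed with tail pNSCs and 6 (46.9%) with lung pNSCs.

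Same-numbered replicates did not deviate together (r between -0.03 and 0.03). Most replicates differed by little more than counting error, so this check cannot exclude that the numbers pair samples. With a replicate block, the counts were 1 (Nes-GFP tail), 0 (Nes-GFP lung), 1 (tail against lung pNSCs), 4, 4 and 3 (the tissue comparisons of that experiment), 1, 1 and 0 (Wnt1Cre-mTmG pNSCs), 6, 5 and 5 (NCSCs), 2 and 4 (Sox2-GFP) and 0 and 2 (differences), the same counts as without it. DESeq2 and upper-quartile scaling turned no direction. DESeq2 moved the median of all genes by -0.11 in Nes-GFP and -0.15 in Sox2-GFP lung pNSCs against lung cells. Of the genes most like each member, none of the 3 stayed among the top 3 by Spearman's rho for Nfia, Nfib, Nfic and Nfix, and 1 did for Nr2f2. Depth limited Nr2f2 most, with 21 to 26 counts in Sox2-GFP lung pNSCs.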
